A study of Mus musculus with 12 samples.

Results

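The comparison described here sets the mouse breast cancer cell line 4T1 against its sister line 4TO7 across microRNAs (miRNAs), measured with 1-colour Agilent arrays, 3 per line, 6 of the 12 arrays of the study. Its members are the mouse miRNAs whose signal stood well above background on all 3 4T1 arrays or on all 3 4TO7 arrays, which holds for 172 of the 567 mouse miRNAs on the array. Both lines are labelled as wild-type cells from a spontaneous breast cancer of a female BALB/c mouse, and neither received a treatment according to the labels. The labels give 4T1 the phenotype metastatic and 4TO7 the phenotype non-metastatic. The other 2 lines of the study, 67NR and 168FARN, are also labelled non-metastatic. They enter here through the estimate of the spread between arrays, the scale, the floor, the choice of each miRNA's brightest probe and the set of tested miRNAs. The 168FARN arrays span 2 slides. The design text asks which miRNAs go with separate steps of metastasis, each represented by a line. Each phenotype is represented here by 1 line, so a difference between metastatic and non-metastatic cells cannot be told apart from a difference between these lines. Each array received 100 ng of total RNA extracted with Trizol. Nothing states that the 3 repeats of a line came from separate cultures. The p-values therefore speak only of the scatter between arrays within the 4 lines, and that scatter may be technical.

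A miRNA is a short RNA cut from a hairpin precursor. It sits in an Argonaute protein and guides it to messenger RNAs, mostly by pairing of its bases 2 to 8, the seed, and the paired messengers are translated less and decay faster. miRNAs with the same seed form a family and can share targets, while miRNAs that lie close together are often cut from 1 transcript. Of the 2 strands of a hairpin the less abundant carries an asterisk in the names used on this array. In breast cancer cells miRNAs have been described both as drivers and as brakes of invasion and spread.

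The mature sequences of the miRNAs on which the results turn are shown here 5′ to 3′ from RefSeq (mouse assembly GRCm38.p6), with the seed in capitals. Of the 172 members 138 were matched to a sequence there. These were among the miRNAs furthest above 4TO7 in 4T1:
miR-132: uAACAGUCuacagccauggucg
miR-155: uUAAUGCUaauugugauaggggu
miR-27b: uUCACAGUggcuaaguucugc
miR-34a: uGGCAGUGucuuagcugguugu
miR-338-3p: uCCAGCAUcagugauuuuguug
miR-500: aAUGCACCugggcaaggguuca
miR-181d: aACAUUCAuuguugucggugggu
miR-181c: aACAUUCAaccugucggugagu

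The next were among those furthest below:
miR-148a: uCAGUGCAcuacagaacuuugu
miR-152: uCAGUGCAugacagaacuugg
miR-146b: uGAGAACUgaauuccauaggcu
miR-7a: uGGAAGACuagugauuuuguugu
miR-340-5p: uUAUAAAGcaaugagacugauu
miR-449a: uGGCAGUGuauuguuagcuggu

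The last set holds relatives that carry the seed of a miRNA above but differed from it in the direction or size of their difference, or were not called:
miR-212: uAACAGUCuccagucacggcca
miR-27a: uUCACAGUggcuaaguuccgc
miR-146a: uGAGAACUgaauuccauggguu
miR-148b: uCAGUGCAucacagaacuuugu
miR-27a and miR-27b differ at 1 of 21 bases, miR-146a and miR-146b at 2 of 22, miR-148a and miR-148b at 2 of 22, miR-132 and miR-212 at 5 of 22, and miR-34a and miR-449a at 7 of 22, in each pair outside the seed. Binding of 1 relative to the probe of another was not tested.

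Levels are given as log2 of the signal scaled to the bright probes of the same array, with the standard deviation (SD) over the 3 arrays of a line. Differences are 4T1 minus 4TO7 in log2 with their standard error (SE), so that 1 is a doubling. A miRNA is called read on an array where any of its probes was well above background there, while its level is that of its brightest probe. Levels under a floor of -5.58 were set to that floor. A difference was called where limma's Benjamini-Hochberg adjusted p, over all 224 miRNAs tested in the 4 lines, was below 0.05. Where 1 line was unread on all 3 arrays, or at the floor on all 3, the fold is a lower bound and is written "at least". The p-value beside such a fold is that of the floored difference, and may be too small, because floored arrays show no spread. Levels of different miRNAs come from different probes and are not compared with each other.

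All 6 arrays lie on 1 slide, with the 3 4T1 arrays and 4TO7 replicate 3 in 1 of its rows and 4TO7 replicates 1 and 2 in the other. Each 4TO7 array read between 148 and 160 mouse miRNAs, each 4T1 array between 166 and 187. The bright probes were 1.66-fold brighter on the 4T1 arrays, with a scale of 889 to 1136 signal units against 600 to 671, and no spot was saturated. Across the 172 members the levels of 4TO7 arrays correlated with each other at 0.994 to 0.999 (Pearson's r over miRNAs, which are no independent replicates), those of 4T1 arrays at 0.999 or more, and arrays of different lines at 0.947 to 0.953. The number of arrays limits the precision, and the median SE of a difference was 0.0558. Within the shared row alone, the 3 4T1 arrays against 4TO7 replicate 3, 50 members were called higher and 69 lower, and of the miRNAs named below miR-130a (0.12), miR-18a* (0.18), miR-542-3p (-0.18), miR-706 (-0.28) and miR-712 (-0.56) lost their call.

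Of the 172 members 135 differed between the lines, 56 higher and 79 lower in 4T1. That is 78.5% of the members (32.6% higher and 45.9% lower), against 60.7% of all 224 tested miRNAs (25% higher and 35.7% lower). The other 52 tested miRNAs were not read on all arrays of 4T1 or of 4TO7. In 150 members the 3 arrays of 1 line lay wholly above those of the other, with 4T1 above in 59 and below in 91, which is 87.2% of members against 67.9% of those tested. Most differences were small. Total RNA of a whole line was measured, so less of a miRNA in every cell and fewer cells that hold it cannot be told apart. A called difference of at least 2-fold was seen for 14 higher and 8 lower members, 12.8% of members against 9.82% of those tested. The median difference over the members was -0.13 and over all tested miRNAs 0.00. 141 members were read on all 6 arrays, 38 of them higher, 68 lower and 35 not called. A further 16 were read on all 4T1 arrays and on no 4TO7 array, while miR-152 was the 1 member read on all 4TO7 arrays and on no 4T1 array. Before the floor was set, the lowest read levels were -6.44, -6.44 and -5.77 on the brighter 4T1 arrays and -5.35, -5.32 and -5.52 on the 4TO7 arrays. Being unread in 4TO7 therefore does not by itself mean less there. Of the 16, 13 were called higher, 1 lower and 2 not called. The 16 met the rule through their 4T1 arrays alone, which favours higher calls, so these counts are no support for a direction. Just outside the rule, 9 mouse miRNAs were read on 2 of 3 arrays of at least 1 line and on 3 of neither.

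**Figure D1:**
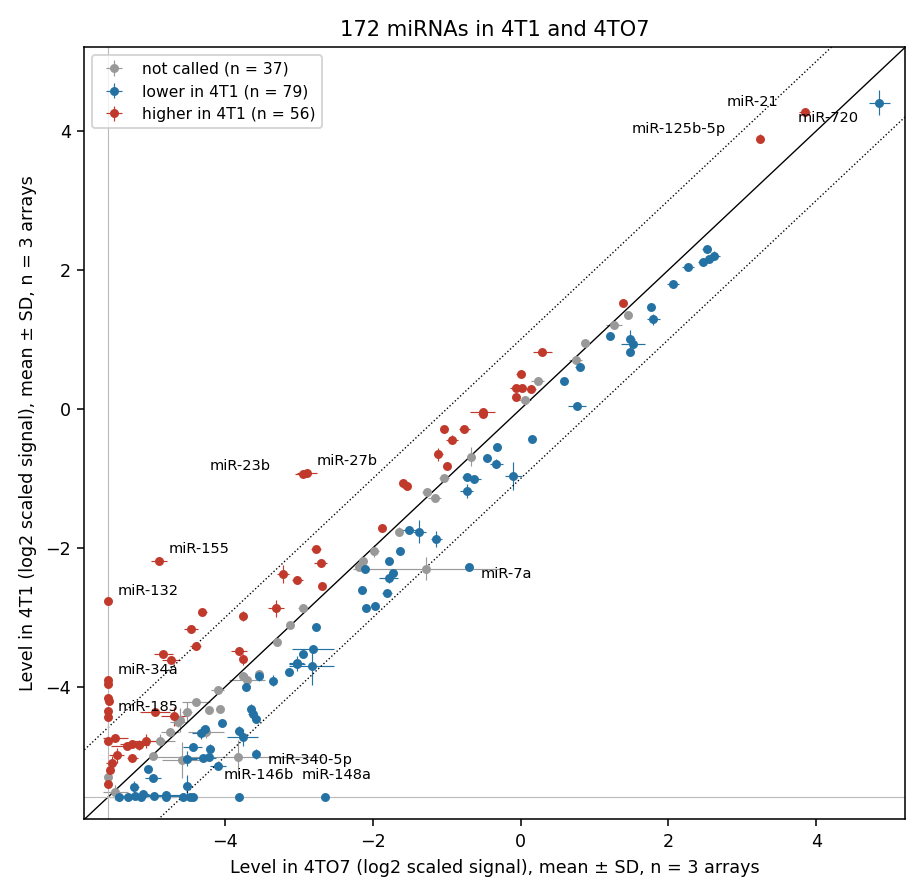
Each of the 172 members is plotted by its mean level in 4TO7 (x axis) and in 4T1 (y axis), both as log2 scaled signal, with bars for the SD over 3 arrays. The solid diagonal marks equal levels, the dotted lines 2-fold differences and the grey lines the floor at -5.58. Red points were called higher in 4T1 (56), blue lower (79) and grey not called (37).

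The split into higher and lower members depends on how the arrays were scaled. With no scaling at all 105 members were higher and 7 lower, under the 75th percentile of the whole probe set 80 and 40, with quantile scaling 63 and 65, with the bright probes of these 6 arrays 66 and 64, and after normexp background correction 30 and 115. The median over the members moved with them, to 0.57, 0.15, -0.01, -0.01 and -0.27. "Higher" and "lower" below are therefore relative to the bright probes of the same array. Among the 56 higher members 53 were called higher under each of these scalings and the one reported, and among the 79 lower members 7 were called lower under each. Those 7 were miR-148a, miR-146b, miR-7a, miR-340-5p, miR-340-3p, miR-449a and miR-152, and normexp called all 7 lower too. After normexp 27 of the 53 were still called higher. The other 3 of the 56, miR-21, miR-125b-5p and miR-18a, were not called under quantile scaling. Among the scalings the reported one gives the lowest median over the members (-0.13), so the others mostly shift differences upward. The counts of 53 and 7 therefore do not compare how firm higher and lower calls are.

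**Figure D2:**
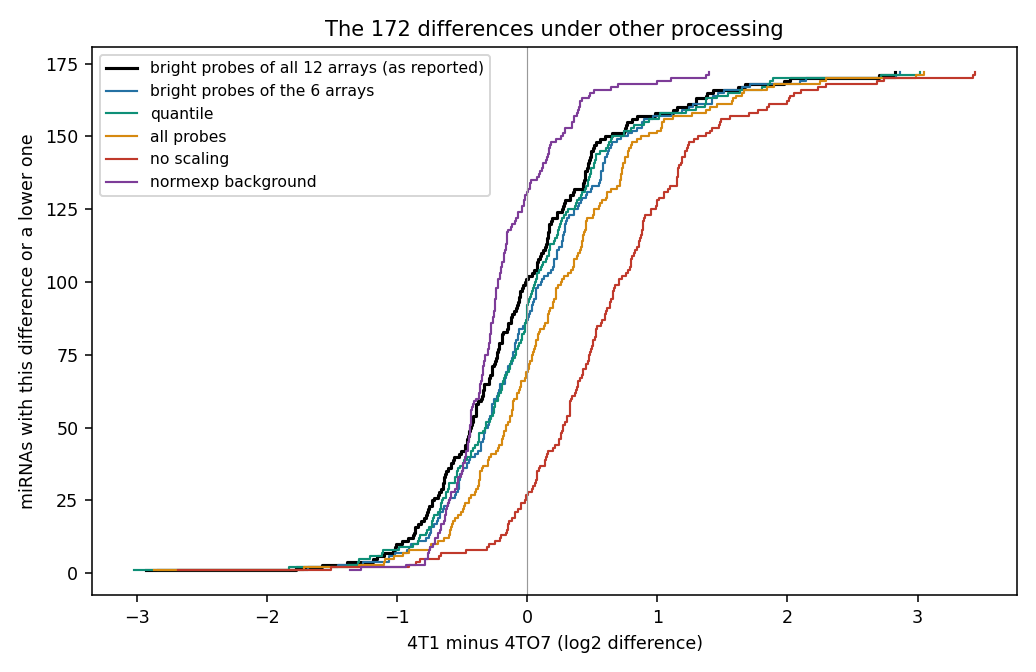
The x axis is the difference, 4T1 minus 4TO7 in log2, and the y axis counts members with that difference or a lower one. Each line shows all 172 members under 1 processing. The curve without scaling lies furthest right (median 0.57) and that after normexp correction furthest left over most of its course (median -0.27), while the curve as reported has a median of -0.13.

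Under the reported processing the largest differences in favour of 4T1 were those of miR-132 and miR-155. miR-132 is switched on by the transcription factor CREB in neurons and other cells (probe target on chromosome 11, 74987231 to 74987246, build mm9, as are all positions here). Its 4TO7 arrays were all at the floor and unread, and its 4T1 arrays stood at -2.79, -2.79 and -2.68. 4T1 was thus at least 6.25-fold higher (adjusted p = 3.77e-13). miR-155 (chromosome 16, 84714393 to 84714410) is induced when immune cells are activated and is abundant in many tumours. It stood at -4.77, -4.93 and -4.97 on the 4TO7 arrays and at -2.19, -2.21 and -2.15 on the 4T1 arrays, and the groups lay far apart. The difference was 2.70 ± 0.06 (SE), or 6.52-fold (adjusted p = 1.54e-11). After normexp background correction both were still called higher, with smaller log2 differences of 1.00 for miR-132 and 1.11 for miR-155. By that correction miR-23b (1.40) and miR-27b (1.38) lay above both. Dimmer probes, read on 3 of the 6 arrays, gave 1.94 for miR-132 and 1.22 for miR-155.

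miR-23b and miR-27b, which are cut from 1 transcript, were about equally raised. miR-27b (chromosome 13, cluster at 63401841 to 63402580) is known as a regulator of lipid metabolism and of vessel growth. Its level was -2.81, -2.81 and -3.05 in 4TO7 and -0.96, -0.90 and -0.90 in 4T1, a difference of 1.97 ± 0.08 (adjusted p = 3.57e-09). For miR-23b the 4TO7 arrays were at -2.97, -2.83 and -3.04 and the 4T1 arrays at -0.97, -0.95 and -0.87, a difference of 2.02 ± 0.06. In both miRNAs the gap between the lines was many times the spread within either. A dimmer probe of each, read on all 6 arrays, gave 2.16 for miR-23b and 2.11 for miR-27b. After normexp both stayed called, at 1.40 and 1.38.

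The other miRNAs read on all 6 arrays with the highest differences were miR-500 (1.38 ± 0.04), miR-532-5p (1.30 ± 0.07), miR-181d (1.29 ± 0.11), miR-362-3p (1.12 ± 0.06), miR-21* (0.98 ± 0.04), miR-149 (0.84 ± 0.10) and miR-674* (0.77 ± 0.04). 3 of these 7, miR-500, miR-532-5p and miR-362-3p, lie in an intron of the chloride channel gene Clcn5. Of the miRNAs read on every 4T1 array and on no 4TO7 array, miR-34a, a target gene of p53 (chromosome 4), stood at -3.88, -3.94 and -3.88 in 4T1 and was at least 2.82-fold higher (adjusted p = 2.76e-10). Its 4TO7 arrays were all at the floor. miR-338-3p, made from an intron of the kinase gene Aatk, was at least 2.71-fold higher, with 4T1 arrays at -3.99, -3.96 and -3.94. For miR-185 the bound was 2.38-fold, for miR-362-5p 2.30-fold, for miR-181c 2.08-fold and for miR-301b 1.97-fold. miR-674 (1.57-fold), miR-532-3p (1.54-fold) and miR-497 (1.30-fold) had the smaller bounds among the 10 that were named. Many of these calls were lost after normexp correction. miR-338-3p (0.12), miR-185 (0.033), miR-181c (0.0052), miR-362-3p (0.093), miR-21* (0.12) and miR-674* (0.15) were not called, miR-301b, miR-362-5p, miR-674 and miR-532-3p lay slightly below 0 without passing the test, and miR-497 was called lower at -0.21. Those that kept the call had smaller differences, with miR-500 at 0.41, miR-149 at 0.34, miR-181d at 0.29, miR-34a at 0.27 and miR-532-5p at 0.17.

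miR-148a was the member furthest below 4TO7. It belongs to a family known to repress the DNA methyltransferase Dnmt1 (chromosome 6, 51219828 to 51219847). The 4TO7 arrays stood at -2.70, -2.65 and -2.61 and the 4T1 arrays were all at the floor, although the scanner software marked 2 of them as above background, as it did for miR-146b, miR-449a and miR-706. 4T1 was at least 7.60-fold lower (adjusted p = 1.05e-13). miR-146b, which with miR-146a holds back NF-kB signalling by repressing Irak1 and Traf6, stood at -3.79, -3.79 and -3.83 in 4TO7 and at the floor on all 4T1 arrays, at least 3.42-fold lower (chromosome 19, 46417283 to 46417301). miR-449a, a relative of miR-34a known from ciliated cells, was at least 2.22-fold lower, with 4TO7 arrays at -4.41, -4.50 and -4.36. miR-152, of the miR-148 family, was at least 2.01-fold lower and miR-706 at least 1.36-fold. After normexp the log2 differences were -1.28 for miR-148a, -0.71 for miR-146b, -0.48 for miR-449a and -0.44 for miR-152, all called lower.

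Among the miRNAs read on all 6 arrays miR-7a was the lowest. It represses the receptor Egfr and is best known from neurons and endocrine cells (chromosome 13, 58494202 to 58494223). The 4TO7 arrays stood at -0.72, -0.71 and -0.65 and the 4T1 arrays at -2.26, -2.25 and -2.29, a difference of -1.58 ± 0.05 or 2.98-fold lower (adjusted p = 3.60e-10). A dimmer probe gave -1.58 as well. Both strands of the miR-340 hairpin were lower. miR-340-5p (chromosome 11, 49883225 to 49883243) stood at -3.59, -3.60 and -3.54 in 4TO7 and at -5.04, -4.91 and -4.93 in 4T1, a difference of -1.38 ± 0.04 (adjusted p = 2.02e-10), and miR-340-3p, at the floor on the 4T1 arrays although marked as read, was at least 2.15-fold lower. After normexp they were called lower at -0.79 and -0.45. After these came miR-466c-5p (-1.03 ± 0.04), miR-805 (-0.96 ± 0.10), miR-714 (-0.91 ± 0.08), miR-467e (-0.88 ± 0.03), miR-712 (-0.87 ± 0.18), miR-466e-3p (-0.87 ± 0.03) and miR-1224 (-0.86 ± 0.09). These 7 were not called lower when the arrays were left unscaled. The array places the probe target of miR-805 on the mitochondrial genome (16169 to 16182) and gives no position for miR-714 and miR-712.

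**Figure D3:**
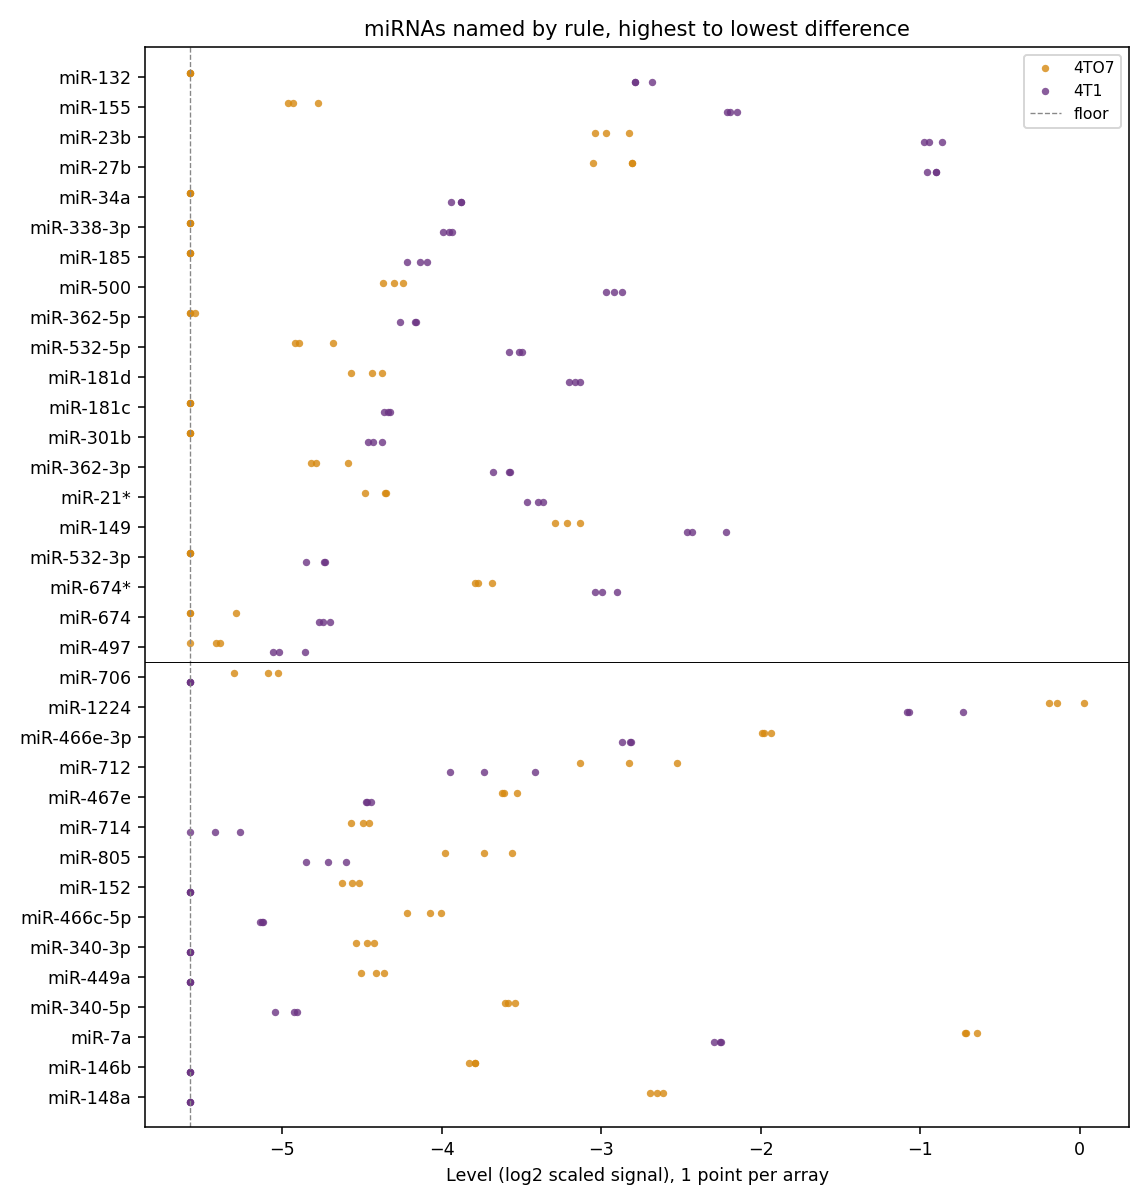
Levels (log2 scaled signal, x axis) of the named miRNAs, 1 point per array, 4TO7 in orange and 4T1 in purple, ordered by the difference, with a line between those higher and those lower in 4T1. The dashed line is the floor at -5.58. In every row the 3 arrays of 1 line lie wholly on 1 side of the other 3, and the spread within a line is mostly small beside the gap between lines. The naming rule took rows read in both lines only where the arrays did not overlap, and the others for 1 line unread or at the floor. The separation is therefore no separate support for the differences.

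Sister clusters that descend from 1 ancestral gene differed in direction under the reported scaling. The cluster of miR-23b, miR-27b and miR-24 on chromosome 13 and that of miR-23a, miR-27a and miR-24-2 on chromosome 8 differ little in sequence. While miR-23b and miR-27b were higher in 4T1, miR-23a fell by 0.58 and miR-27a by 0.66. miR-27a stood at 1.46, 1.48 and 1.52 in 4TO7 and at 0.79, 0.86 and 0.83 in 4T1 (adjusted p = 2.49e-07). miR-24-2*, cut from the chromosome 8 cluster, was lower too (-0.48 ± 0.05), and miR-24, which both clusters make, stood at 0.08 ± 0.03 and was not called. Within an array, where the scale cancels, miR-27b minus miR-27a lay 2.63 higher in 4T1, and miR-23b minus miR-23a 2.60 higher. The arrays of the lines did not overlap in either (two-sided exact permutation p = 0.1, the smallest that 3 arrays against 3 allow). These pairs, and the strands of miR-21 below, were chosen after their values were seen. Unscaled, miR-27a and miR-23a were 0.06 and 0.14 above 4TO7 without passing the test.

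Other relatives parted in the same manner. miR-132 and miR-212 lie next to each other on chromosome 11 in 1 transcript, yet miR-212 stood at -1.34, -1.21 and -1.26 in 4TO7 and at -1.21, -1.24 and -1.13 in 4T1. Those arrays overlapped, and the difference of 0.08 ± 0.14 was not called (adjusted p = 0.769, 95% interval -0.24 to 0.39), though unscaled it was called higher at 0.80. miR-34a and miR-449a share a seed and were called in opposite directions. miR-146a was unread in 4TO7 and just above the floor in 4T1 (-5.45, -5.32 and -5.40; at least 1.01-fold higher), while miR-146b was at the floor in 4T1. After normexp miR-146a was not called. In the miR-148 family all 3 members fell, but by unequal amounts. miR-148b stood at -3.74, -3.71 and -3.69 in 4TO7 and at -4.00, -4.02 and -3.98 in 4T1, a difference of -0.29 ± 0.04. Unscaled, miR-148b was called higher in 4T1 while miR-148a and miR-152 remained lower.

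Several families and clusters shifted together under the reported scaling. All lists were drawn up with earlier results of these data known, and their counts stand beside the median of -0.13 over the 172 members. The Clcn5 intron cluster (chromosome X, 6814821 to 6825598) had 5 of 6 members higher and miR-188-5p not called, with a median of 1.21. miR-362-5p, miR-532-3p and miR-188-5p were unread on the 4TO7 arrays, so this median includes differences from levels at or near the floor. miR-532-5p, the partner strand of miR-532-3p, stood at -4.92, -4.68 and -4.90 in 4TO7 and at -3.51, -3.58 and -3.50 in 4T1. After normexp correction the cluster had 2 members higher and 1 lower and a median of 0.04. In the miR-181 family, known from lymphocyte development, miR-181c and miR-181d, neighbours on chromosome 8, were higher, and miR-181b, unread in 4TO7 and near the floor in 4T1, was not called. The median of the 3 was 1.24, and 0.0052 after normexp, when miR-181d was the 1 member called higher. The value of 1.24 is the floored difference of miR-181c, which was unread in 4TO7 and at least 2.08-fold higher.

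All 4 members of the miR-130 and miR-301 family were higher, with a median of 0.62. miR-301a rose by 0.75 ± 0.05 (adjusted p = 6.96e-08), from -1.06, -1.02 and -1.04 to -0.27, -0.26 and -0.32. miR-130b (0.49 ± 0.04) and miR-130a (0.15 ± 0.04) were higher by less. miR-221 (0.47 ± 0.09) and miR-222 (0.76 ± 0.06), which repress the cell cycle inhibitor Cdkn1b, were both higher, as they were under every scaling and under normexp. Of the miR-30 family 6 members were higher, miR-30e lower and miR-30e* not called (median 0.40), but after normexp 2 were higher and 4 lower. miR-30a (0.49 ± 0.05) and miR-30b (0.47 ± 0.04) were higher under each of these settings. Of the miR-99/100 and miR-125 clusters 5 of 7 members were higher (median 0.43, and -0.04 after normexp), among them miR-125b-5p at 0.65 ± 0.04. Its 4TO7 arrays were at 3.23, 3.25 and 3.22 and its 4T1 arrays at 3.83, 3.87 and 3.96. Under quantile scaling miR-125b-5p had a difference of 0 and was not called. miR-99a fell by 0.65, although miR-100, which differs from it at 1 of 22 bases, was higher by 0.43 ± 0.06, and unscaled miR-99a was not called.

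miR-21, 1 of the most widely raised miRNAs in carcinomas, stood at 3.85, 3.77 and 3.91 in 4TO7 and at 4.27, 4.27 and 4.28 in 4T1, a rise of 0.43 ± 0.06 (adjusted p = 9.08e-05). Under quantile scaling miR-21 was not called. Its partner strand miR-21* rose by more, from -4.35, -4.48 and -4.35 to -3.47, -3.36 and -3.40. Within arrays miR-21* minus miR-21 changed by 0.55 without overlap between the lines (exact permutation p = 0.1). After normexp correction miR-21* was not called.

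The Sfmbt2 intron cluster, an imprinted and rodent-specific array of near-identical miR-466, miR-467 and miR-669 copies (chromosome 2, 10389446 to 10430967), had 13 of 13 members lower, with a median of -0.78. Its differences ran from -1.03 for miR-466c-5p to -0.56 for miR-467a. miR-669a stood at -1.82, -1.86 and -1.74 in 4TO7 and at -2.66, -2.67 and -2.60 in 4T1. Unscaled, 0 of the 13 were called, with a median of -0.10 and a range of -0.31 to 0.16, so the raw signals of this cluster were near equal on the arrays of both lines. Relative to the median of all members the cluster lay 0.64 lower, with 13 of 13 below it. Probes for such near-identical copies can bind each other's targets, and the 13 are not independent measurements.

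The miR-29 family, repressors of collagen genes, had 4 of 4 members lower (median -0.35), but 0 were called under the 75th percentile of the whole probe set and 2 were higher with no scaling (median 0.38). miR-29a stood at 2.65, 2.54 and 2.68 in 4TO7 and at 2.19, 2.14 and 2.28 in 4T1. The X-linked cluster of miR-322, miR-503, miR-450a-5p and miR-542-3p, of which the first pair restrains the cell cycle, had all 4 members lower, from -0.68 for miR-503 to -0.14 for miR-542-3p. miR-542-3p was marked as read on the 4T1 arrays and on none of 4TO7, yet its level was at the floor in 4T1, so its direction is not settled. miR-322 and miR-503 carry or nearly carry the seed of miR-15a and miR-16, which were higher (0.18 ± 0.04 and 0.36 ± 0.05), as were miR-195 (0.45 ± 0.08) and miR-497 of the same family. After normexp miR-195 was called lower (-0.24), like miR-497, and with slide and row as a term miR-195 was not called (adjusted p = 0.0503). Unscaled, miR-322 and miR-503 were not called. In the miR-183 cluster, known from sensory cells, miR-96 fell by 0.58, miR-182 by 0.45 and miR-183 by 0.39, while miR-183* was not called at -0.27 ± 0.12. Unscaled, none of the 4 was called lower.

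Large families were mixed. Among the 10 let-7 members, which restrain Ras, Hmga2 and other growth genes, 1 was higher, 4 lower and 5 not called, with a median of -0.14 that turned to 0.14 under the 75th percentile of all probes and to 0.58 with no scaling. let-7i stood apart at 0.53 ± 0.06, with 4TO7 arrays at 0.32, 0.16 and 0.41 and 4T1 arrays at 0.80, 0.80 and 0.86, and let-7b was the lowest at -0.51 ± 0.08. Of the 9 members from the growth-promoting miR-17-92 cluster 2 were higher and 4 lower, from -0.48 for miR-92a to 0.27 for miR-18a* (called lower after normexp at -0.28), with a median of -0.07 that was 0.65 with no scaling. miR-26a (-0.46 ± 0.06) and miR-101a (-0.33 ± 0.05), known repressors of Ezh2, were lower, and miR-101b was higher (0.14 ± 0.03), though not after normexp. With no scaling miR-26a was not called and miR-101a lay above 4TO7. miR-31, which has been reported to suppress metastasis, was lower by little (-0.15 ± 0.03), and with no scaling it was higher.

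miRNAs reported to promote breast cancer metastasis numbered 9 among the members, of which 6 were higher (miR-155, miR-222, miR-103, miR-221, miR-107 and miR-21), miR-182 was lower, and miR-9 and miR-210 were not called. Their median was 0.44, and 1.16 with no scaling. Under quantile scaling miR-21 was not called. Of 7 reported suppressors, miR-34a, miR-30a and miR-146a were higher, miR-146b, miR-193b and miR-31 were lower, and miR-126-3p was not called. The median of the suppressors was 0.10, and 0.81 with no scaling. For comparison, 32.6% of all 172 members and 25% of all 224 tested miRNAs were called higher. miR-103 (0.50 ± 0.05) and miR-107 (0.44 ± 0.05), which differ at 1 of 23 bases and are known to repress Dicer, were higher together. From the imprinted Dlk1-Dio3 cluster 2 of 68 miRNAs on the array were members, miR-494 (-0.73 ± 0.05) and miR-487b (-0.73 ± 0.13). Their raw signals were equal in both lines, with unscaled differences of -0.01 and -0.01.

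**Figure D4:**
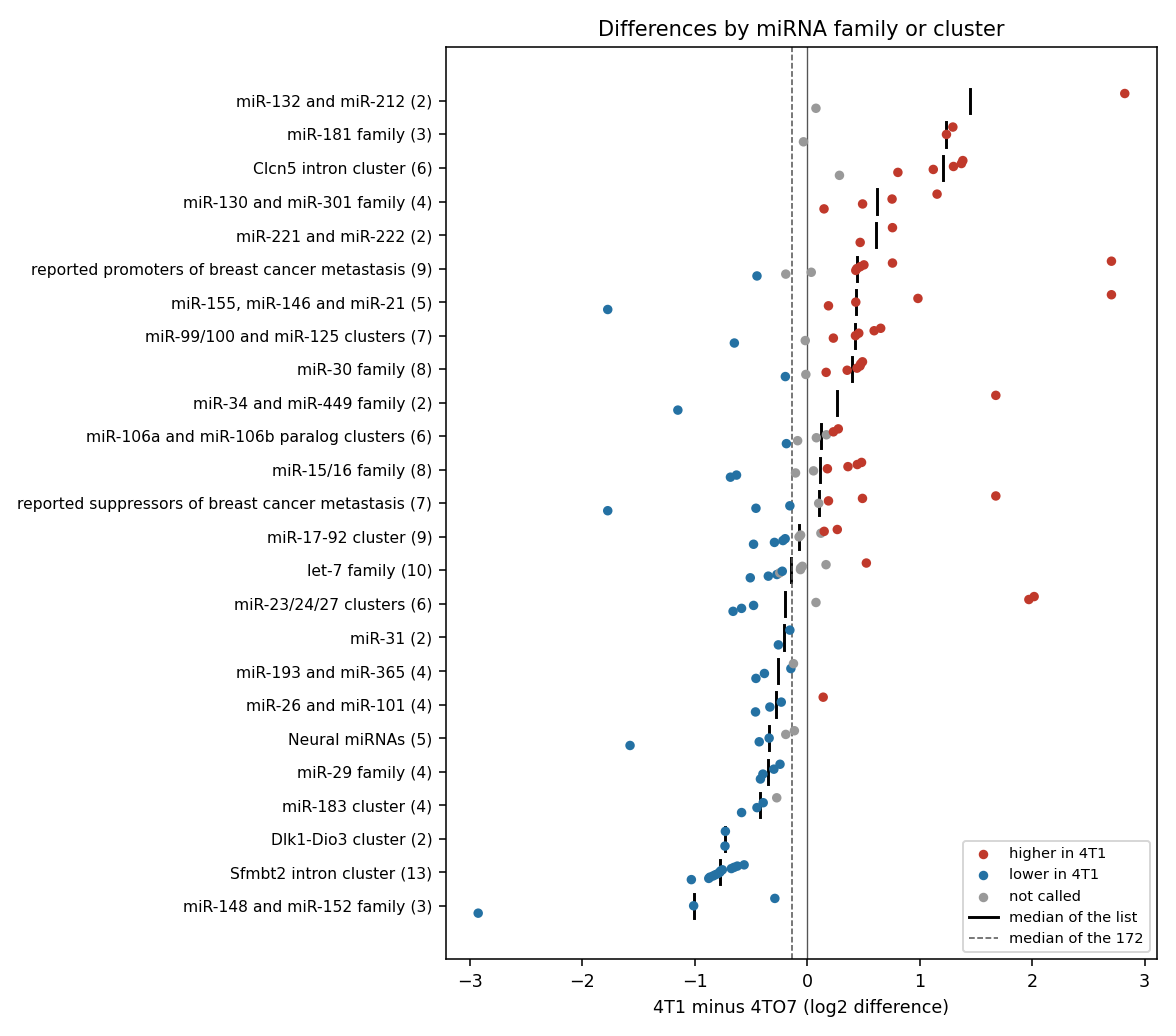
Differences (4T1 minus 4TO7, log2, x axis) of the members of each family, cluster or reported set, 1 point per miRNA, red where called higher, blue where called lower and grey where not called, with the number of members in brackets. Black bars are list medians, the solid line is 0 and the dashed line the median of the 172 members. The Clcn5 intron cluster (median 1.21) and the Sfmbt2 intron cluster (median -0.78) lie to either side, and without scaling the median of the latter moves to -0.10.

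Both strands were members for 28 hairpins. In 15 both strands were called in the same direction, in 9 1 strand was called, in 3 neither was, and in 1 the strands were called in opposite directions. The median gap between the strands' differences was 0.17. The opposite pair was miR-338, whose 3p strand was at least 2.71-fold higher, while miR-338-5p stood at -5.10, -5.03 and -5.19 in 4TO7 and at -5.51, -5.52 and -5.58 in 4T1 (-0.43 ± 0.05). Both its levels are close to the floor. After normexp miR-338-3p was not called (0.12). Second in size was the gap between miR-7a*, at -0.34 ± 0.05, and miR-7a, at -1.58. miR-7a is encoded on chromosomes 13 and 7 and miR-7a* on chromosome 13 alone, so this gap is not between the strands of a single hairpin. The partners of miR-24-2*, miR-29b* and let-7c-2* likewise come from more than 1 chromosome. The miR-340, miR-362, miR-532 and miR-674 hairpins kept both strands on the same side. Dimmer probes of the same miRNA, where read on all 6 arrays, covered 107 members with 112 probes. Of the 86 such probes of called members 0 gave the opposite sign, and the median gap to the brightest probe was 0.05.

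Among the 138 members with a sequence there were 95 different seeds, and 21 seeds were shared by at least 2 members, 64 in all. In 13 of the 21 the called members went 1 way, and in 8 they went both ways. CAGUGCA (miR-148a, miR-148b, miR-152) and AGCACCA (miR-29a, miR-29b, miR-29c) were carried by lower members alone, and AGUGCAA (miR-130a, miR-130b, miR-301a), GCUACAU (miR-221, miR-222) and GCAGCAU (miR-103, miR-107) by higher members alone. The 8 that went both ways included GGCAGUG (miR-34a and miR-449a), UCACAGU (miR-27b and miR-27a), GAGAACU (miR-146a and miR-146b), ACCCGUA (miR-99a against miR-99b and miR-100), AGCAGCA (miR-322 against miR-15a, miR-16, miR-195 and miR-497) and the let-7 seed GAGGUAG, which 9 members share and whose differences ran from -0.51 to 0.53. GAGAACU went both ways only through miR-146a, which was at least 1.01-fold higher and not called after normexp. With no scaling, 0 of the 3 members with AGCACCA were called lower, and of those with CAGUGCA miR-148b was called higher. Over the sequences the share of G and C correlated with the difference at r = 0.177 and the length at r = 0.103 (n = 138 miRNAs of the same 6 arrays, given as a description).

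**Figure D5:**
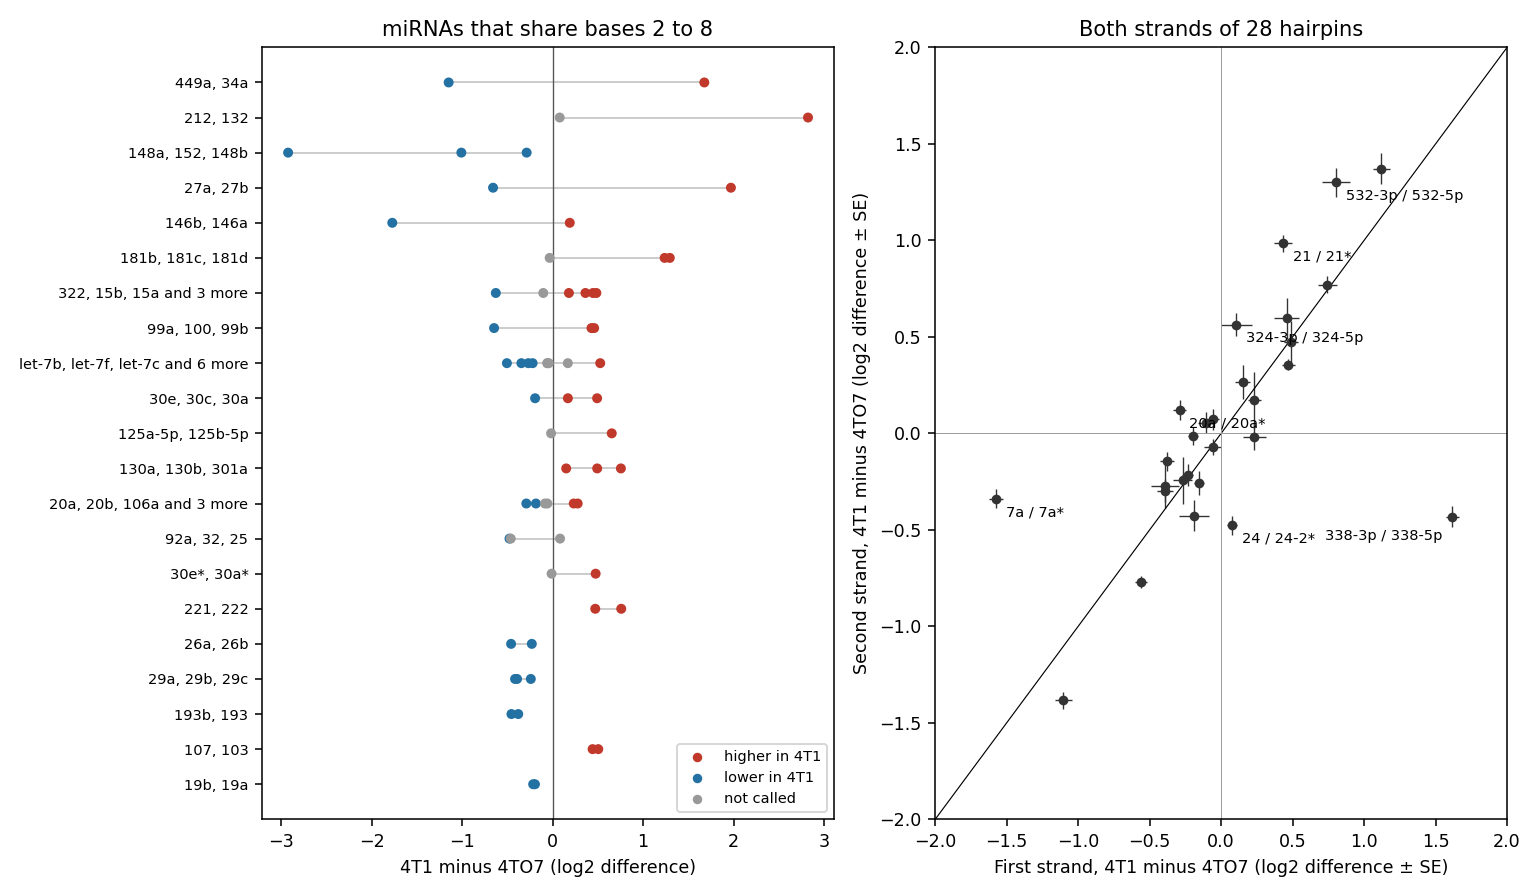
Left, the differences (4T1 minus 4TO7, log2) of members that share bases 2 to 8, 1 row per seed with up to 3 members named, red where called higher, blue where called lower and grey where not called, sorted by their range. Right, the differences of both strands of 28 hairpins with SE bars and the line of equality, on which the strands of miR-338 (1.62 and -0.43) lie furthest from the line.

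Some members did not differ beyond their spread. The 5 nearest to 0 among those read on all 6 arrays were miR-331-3p (95% interval -0.10 to 0.11), miR-30e* (-0.12 to 0.10), miR-125a-5p (-0.17 to 0.14), miR-210, which hypoxia induces (-0.15 to 0.22), and let-7g (-0.19 to 0.11). Larger but uncertain were miR-697 (-1.19 ± 0.78, adjusted p = 0.227) and miR-202-3p (-1.02 ± 0.66, adjusted p = 0.221). For both, 4TO7 replicate 3 stood apart from the other arrays of its line. It stood at -2.49 for miR-697, against -4.38 and -4.59, and -0.13 for miR-202-3p, against -1.88 and -1.82. Without this array the differences were -0.52 and -0.44 (limma adjusted p = 0.702 for both). Within the shared row of the slide, where this array stands alone for 4TO7, they were -2.52 and -2.16 (adjusted p = 0.0569 and 0.0513). A fit with slide and row as a term gave the same sizes and called both (adjusted p = 0.0448 and 0.0337), and normexp correction called miR-697 at -0.75. No other member had an array this far from the rest of its line, the gaps being 1.89 and 1.69.

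The labels call both lines breast cancer cells, so markers of cell types were looked up. None of 7 epithelial miRNAs (the miR-200 family, miR-203 and miR-205) was read on any of the 6 arrays, and their summed signal ran from 0.88 to 1.96 units in 4TO7 and from -8.34 to -0.42 in 4T1. The haematopoietic, muscle and the liver and pancreas lists had 0 members read in either line. Of 9 mesenchymal and fibroblast miRNAs on the array only miR-140 and miR-140* were members, and neither was called (-0.06 ± 0.04 and 0.07 ± 0.05). The summed signal of this list, before scaling, ran from 132 to 156 units in 4TO7 and from 224 to 288 in 4T1. miR-126-3p of endothelium (0.10 ± 0.06) and miR-9 of neurons (-0.19 ± 0.10) were not called either. Before scaling, the summed signal of the endothelial list ran from 23.4 to 29.9 units in 4TO7 and from 40.7 to 52.1 in 4T1. That of the neuronal list ran from 39.4 to 51.3 units in 4TO7 and from 59.7 to 74.1 in 4T1. Before scaling, the summed signal was thus higher in 4T1 for the endothelial and neuronal lists as well as the mesenchymal list. The bright probes were 1.66-fold brighter on the 4T1 arrays, and a cause of the higher sums was not tested.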

How the data were processed

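The deposited files hold intensity values of the spots of 12 arrays of 1 colour, per the file headers read by Feature Extraction 10.2.1.3, with background subtracted and no scaling between arrays. The values of the series matrix are equal to them, with 0 as the largest difference. The labels name biotin as the label. Spots marked uneven or as replicate outliers were left out, the rest of a probe were averaged, and a probe was read where more than 0.5 of its spots were well above background. The scale of an array was the 75th percentile over those 170 probes that all 12 arrays read. A floor of 0.0209 (log2 -5.58), the median of the lowest read value per array, was set before taking log2. The brightest of a miRNA's probes, by mean signal over all 12 arrays, gave its level. A miRNA counted as read on an array where any of its probes was read.

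limma 3.58.1 in R 4.3.3 fitted the 4 lines to all 12 arrays (8 residual degrees of freedom) for the 224 miRNAs read on all 3 arrays of a line, with two-sided Benjamini-Hochberg adjusted p. A bound is the mean of the brighter line over that of the dimmer line, taken per array at the lowest read level or at the miRNA's own, whichever is higher. The fit was tested on simulated data. The R package data.table (version 1.17.8), pandas 2.3.3 and matplotlib 3.10.9 served for data handling and plots.

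Members, lists and naming rule were chosen with earlier results of these data known. Named were the 10 highest and 10 lowest called members read on all 6 arrays without overlap, up to 10 per direction with 1 line unread, up to 4 members of each list by adjusted p, strand pairs, the 5 nearest to 0 and members of shared seeds. Members with 1 line at the floor and those named beside them were added after their values were seen. The 23 alternatives changed the scale, the background correction (normexp), the source, the probes, spots or floor behind a level, the filter, the arrays or blocks in the fit, the variance estimate or the minimum fold. Replicate numbers were not used as a block, because the deviations of same-numbered 4TO7 and 4T1 arrays from their line correlated at -0.16, 0.23 and 0.19, and the labels name no shared batch.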

Additional observations from a re-analysis of the deposited data

How the results depend on the processing

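The total of 135 called members, 56 higher and 79 lower, was within 1.5 times of these counts under most alternatives. The exceptions were a minimum fold of 1.2 in the test (84 called, 36 higher and 48 lower), no scaling (105 higher and 7 lower), the 75th percentile of all probes (40 lower) and normexp background correction (30 higher). With the minimum fold of 1.2, 20 named members lost their call. Leaving out 1 array at a time gave 128 to 134 called, 51 to 57 higher and 77 to 79 lower. With the replicate block the counts were 134 on 12 arrays, and 122 on the 6 arrays. On the 6 arrays 4 named members lost their call, among them miR-221 and miR-712 (limma adjusted p = 0.0669 and 0.105). Signs that turned under other processing were these. With no scaling the difference (log2) was 0.21 for let-7b, 0.39 for miR-101a, 0.43 for miR-148b, 0.27 for miR-182, 0.33 for miR-183, 0.26 for miR-193b, 0.14 for miR-23a, 0.24 for miR-24-2*, 0.26 for miR-26a, 0.061 for miR-27a, 0.30 for miR-29a, 0.33 for miR-29b, 0.48 for miR-29c, 0.53 for miR-30e, 0.57 for miR-31, 0.092 for miR-322, 0.16 for miR-338-5p, 0.20 for miR-450a-5p, 0.16 for miR-467a, 0.038 for miR-503, 0.41 for miR-542-3p, 0.38 for miR-7a*, 0.24 for miR-92a, 0.14 for miR-96, 0.072 for miR-99a, 0.58 for the median of the let-7 family, 0.65 for the median of the miR-17-92 cluster and 0.38 for the median of the miR-29 family. With the 75th percentile of all probes it was 0.039 for miR-29c, 0.087 for miR-30e, 0.13 for miR-31, 0.018 for miR-542-3p, 0.14 for the median of the let-7 family and 0.21 for the median of the miR-17-92 cluster. With quantile scaling it was 0.045 for miR-31, 0.054 for the median of the let-7 family and 0.011 for the median of the miR-17-92 cluster, and with the bright probes of the 6 arrays 0.053 for the median of the miR-17-92 cluster. After normexp correction it was -0.094 for miR-101b, -0.043 for miR-146a, -0.28 for miR-18a*, -0.24 for miR-195, -0.069 for miR-301b, -0.013 for miR-362-5p, -0.21 for miR-497, -0.089 for miR-532-3p, -0.15 for miR-674, -0.0999 for the median of the miR-30 family and -0.042 for the median of the miR-99/100 and miR-125 clusters. The cause of these turns was not tested. The members' median under each scaling and after normexp is given above. Of single arrays, the call of miR-18a* rested on 4TO7 replicate 1 and 4T1 replicate 3 (0.17 and 0.19 without them) and the call of miR-542-3p was lost without any of 5 arrays, all but 4TO7 replicate 1. A floor of 2 times the height left 110 called, and 14 named members lost their call, namely miR-146a, miR-152, miR-18a*, miR-195, miR-338-5p, miR-340-3p, miR-450a-5p, miR-487b, miR-497, miR-532-3p, miR-542-3p, miR-674, miR-706 and miR-7a*. The software's total gene signal ended the calls of miR-101b, miR-130a, miR-15a, miR-18a* and miR-338-5p. Without 4TO7 replicate 3, miR-9 was called lower (-0.30). With slide and row as a term, 7 named members lost their call, among them miR-193b and miR-195 (limma adjusted p = 0.0504 and 0.0503). The filter on all 6 arrays leaves no value for members unread in 1 line. Signals near the floor, and the 1.66-fold brighter 4T1 arrays, limit what can be said of dim members.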
